A study of Mus musculus with 12 samples.

Results

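The 5 genes described here encode the neuropeptides PACAP (Adcyap1) and VIP (Vip) and the receptors they share, PAC1 (Adcyap1r1), VPAC1 (Vipr1) and VPAC2 (Vipr2). They were taken by gene symbol from the 50563 genes of a raw count table, and all 5 passed the filter on low counts, with 15688 genes tested in all. The cortex of 12 aged E4FAD mice was sequenced, 1 library per mouse. E4FAD mice are homozygous for human APOE4, which replaces mouse Apoe, and carry 1 copy of the 5xFAD transgenes (APOE4+/+, 5FAD-/+ in the labels), which are familial Alzheimer's disease transgenes expressed in neurons, so all mice had the disease genotype and no mouse without it was compared. The 5 DPAn-6 mice received the omega-6 fatty acid docosapentaenoic acid, as its ethyl ester, at 700 mg/kg body weight by daily oral gavage for 3 weeks, and the 7 CTRL mice received vehicle by the same route. Both groups received the antioxidants alpha-tocopherol and palmitoyl ascorbic acid with it. The age was 12 months in 2 CTRL and 2 DPAn-6 mice and 14 months in the other 5 CTRL and 3 DPAn-6 mice. Sex is known per group only, with 4 females and 3 males in CTRL and 3 females and 2 males in DPAn-6. The comparison asked which mRNAs differed in the cortex after DPAn-6.

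PACAP and VIP belong to the secretin family of peptides. PAC1 binds PACAP with far higher affinity than VIP, whereas VPAC1 and VPAC2 bind both, and all 3 receptors act mainly through the stimulatory G protein, adenylyl cyclase and cyclic AMP. In the cortex VIP marks a class of inhibitory interneurons that mostly contact other interneurons, and PACAP is made mainly by excitatory neurons and is known as a neurotrophic and neuroprotective peptide.

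Adcyap1 and Vipr2 mRNA rose in DPAn-6 mice, Adcyap1 by 1.71-fold and Vipr2 by 2.29-fold, and the groups did not overlap in either gene. Vip was 1.17-fold higher without passing the adjusted test, and Adcyap1r1 and Vipr1 were not called. Thus 2 of the 5 genes passed an adjusted p of 0.05, both higher, beside 1.55% of all genes tested in either direction, 0.408% higher and 1.14% lower. The groups did not overlap, with DPAn-6 higher, in 1.73% of all genes tested. Adcyap1 was 13th of all genes by p and Vipr2 was 151st. In 25 alternative fits Adcyap1 stayed called in 23 and Vipr2, at only 6 to 53 counts per mouse, in 15. The study itself had named Adcyap1 from these samples, so its direction here is no independent evidence.

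**Figure D1:**
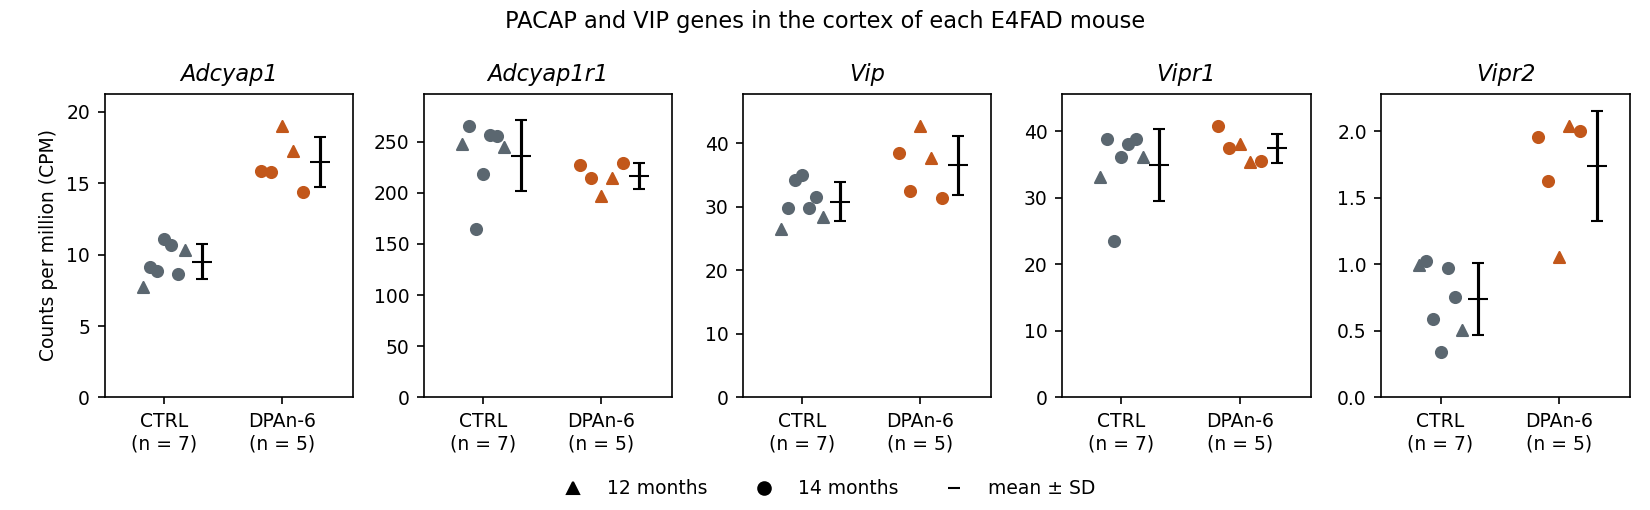
CPM (the count scaled to a common library total) of each gene in every mouse, with CTRL in grey, DPAn-6 in orange, triangles for 12 months, circles for 14 months and the mean ± SD (n = 7 and 5) beside the points. The 5 DPAn-6 mice lie above all 7 CTRL mice in Adcyap1 and Vipr2, whereas the groups overlap in the other genes, and 1 CTRL mouse is low in Adcyap1r1 and Vipr1.

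Total counts per mouse were 15339098 to 19500154 in CTRL and 15208803 to 26520251 in DPAn-6. Cortical excitatory neuron markers summed to 8952 to 11058 CPM in CTRL and 9215 to 9725 CPM in DPAn-6, whereas those of hypothalamic neurons reached at most 2.12 CPM. CTRL replicates 2, 3 and 5 held 1676, 203 and 1037 CPM of choroid plexus markers, and the other mice held 7.90 to 35.2 CPM. CTRL replicate 3 also stood apart from the other CTRL mice in Adcyap1r1 and Vipr1. In the 9 mice without those 3 libraries, Adcyap1 (log2 fold change 0.78, edgeR adjusted p = 0.00225) and Vipr2 (1.39, adjusted p = 0.0177) were again called and the other 3 genes were not. In whole cortex, fewer cells of a type and less RNA per cell cannot be told apart.

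Cyclic AMP acts on transcription through CREB, which binds the palindrome TGACGTCA. The promoters of both peptide genes held its first 7 letters, and their sequences are shown with those letters in capitals. They are from RefSeq (GRCm38.p6), which had a promoter for 5 of the 5 genes, and the window searched was the 250 bases before the start on both strands. The third is the promoter of Scg2, a cyclic AMP-responsive gene that also rose in DPAn-6 mice, in which the letter after the capitals completes the palindrome.
Adcyap1, chr17:93198902-93198956, strand +: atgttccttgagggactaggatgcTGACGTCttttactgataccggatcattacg
Vip, chr10:5639115-5639169, strand +: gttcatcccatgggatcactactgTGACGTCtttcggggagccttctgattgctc
Scg2, chr1:79440064-79440118, strand -: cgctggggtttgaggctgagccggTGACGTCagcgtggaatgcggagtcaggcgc
The match began 91 bases before the start in Adcyap1 (a second RefSeq start lies at 93199168), 79 bases before it in Vip and 68 bases before it in Scg2. TGACGTC was found in 914 of 32851 promoters (2.78%), or 854 of 27025 genes (3.16%). The whole palindrome TGACGTCA was found in 1.55% of promoters and in 0 of the 5 genes. Dusp1, another cyclic AMP-responsive gene, also held it and was not called (log2 fold change -0.16, edgeR adjusted p = 0.790). The shorter TGACG, contained in both, stood in Adcyap1, Vip and Vipr1, and in 17.8% of all promoters. These letters were not in the windows of Adcyap1r1 and Vipr2. Of the 2 genes that rose, Adcyap1 thus held the 7 letters and Vipr2 did not. Whether these letters bear on any rise in DPAn-6 mice was not tested.

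Adcyap1 (ENSMUSG00000024256, chromosome 17, 93199017 to 93206537, + strand, GRCm38) encodes the precursor of PACAP. In DPAn-6 mice it had 15.9, 15.8, 19.0, 17.3 and 14.4 CPM in replicates 1 to 5, and in CTRL it ranged from 7.72 to 11.1 CPM with a median of 9.16 CPM. The lowest DPAn-6 mouse was thus above the highest CTRL mouse, and the highest 2 DPAn-6 mice were the 12-month ones. The mean was 3.24 ± 0.19 log2 CPM (SD, n = 7) in CTRL and 4.04 ± 0.15 log2 CPM (SD, n = 5) in DPAn-6. By edgeR the log2 fold change was 0.77 (SE 0.10, 95% interval 0.55 to 0.99, adjusted p = 0.00302), and the two-sided exact permutation test gave p = 0.00126, the smallest that 792 splits can give. Each gene count was between 132 and 382. The call was lost in the 14-month mice alone (log2 fold change 0.64, adjusted p = 0.150) and with Ttr, a choroid plexus gene, as covariate (0.77, adjusted p = 0.0819).

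Vip (ENSMUSG00000019772, chromosome 10, 5639218 to 5647617, + strand) encodes the precursor of VIP. DPAn-6 mice had 38.5, 32.5, 42.7, 37.7 and 31.4 CPM, and CTRL mice had 26.5 to 35.1 CPM with a median of 29.9 CPM. The groups overlapped, with 5 of 5 DPAn-6 mice above the CTRL mean and 3 of them above every CTRL mouse. The mean was 4.94 ± 0.14 log2 CPM (SD, n = 7) in CTRL and 5.18 ± 0.18 log2 CPM (SD, n = 5) in DPAn-6. By edgeR the log2 fold change was 0.22 (SE 0.10, 95% interval 0.02 to 0.43), with p = 0.0357 before and 0.302 after adjustment and an exact permutation p of 0.0316. Of all genes tested, 14.5% had an unadjusted p below 0.05. The interval ended at a fold of 1.35, and that of Adcyap1 began at 1.46.

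Relative to VIP, PACAP mRNA was higher in every DPAn-6 mouse. The ratio of Adcyap1 to Vip, both in CPM per kb of exon, was 0.278 in CTRL (geometric mean, range 0.234 to 0.329) and 0.407 in DPAn-6 (0.372 to 0.438). The ranges did not overlap, which is not independent of the rise of Adcyap1 (log2 fold change 0.77, against 0.22 for Vip). Vip remained the more abundant peptide mRNA per length in all 12 mice.

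Adcyap1r1 (ENSMUSG00000029778, chromosome 6, 55451978 to 55501451, + strand) encodes PAC1, the PACAP-selective receptor. DPAn-6 mice had 227, 215, 197, 214 and 229 CPM, and CTRL mice had 165 to 265 CPM with a median of 248 CPM. The order of the mice was mixed, with 5 CTRL mice above every DPAn-6 mouse and CTRL replicate 3, at 165 CPM, below every one. The mean was 7.87 ± 0.24 log2 CPM (SD, n = 7) in CTRL and 7.75 ± 0.09 log2 CPM (SD, n = 5) in DPAn-6, with a log2 fold change of -0.15 (SE 0.10, 95% interval -0.35 to 0.05, edgeR adjusted p = 0.522, exact permutation p = 0.357). Without CTRL replicate 3 the log2 fold change was -0.21 (SE 0.06) and was called lower (adjusted p = 0.0373), and limma-voom with sample weights gave -0.21 with an adjusted p of 0.0201. Without all 3 CTRL mice with high choroid plexus markers it was -0.18 and was not called (adjusted p = 0.123).

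Vipr1 (ENSMUSG00000032528, chromosome 9, 121642716 to 121672954, + strand) encodes VPAC1. DPAn-6 mice had 40.8, 37.4, 38.1, 35.4 and 35.5 CPM, within or just above the CTRL range of 23.5 to 38.9 CPM (median 36.1 CPM). The lowest value was again that of CTRL replicate 3. The log2 fold change was 0.08 (SE 0.10, 95% interval -0.14 to 0.30, edgeR adjusted p = 0.800, exact permutation p = 0.444), and without CTRL replicate 3 it was 0.01. The 95% interval held folds from 0.907 to 1.23.

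Vipr2 (ENSMUSG00000011171, chromosome 12, 116077726 to 116146261, + strand) encodes VPAC2, known for its part in the suprachiasmatic clock. It was the least abundant of the genes. DPAn-6 mice had 1.96, 1.63, 1.06, 2.04 and 2.0 CPM, from 36, 29, 21, 31 and 53 counts, and CTRL mice had 0.344 to 1.02 CPM with a median of 0.755 CPM, from 6 to 19 counts. The groups did not overlap, but DPAn-6 replicate 3, at 1.06 CPM, was close to CTRL replicate 2, at 1.02 CPM. The mean was -0.47 ± 0.57 log2 CPM (SD, n = 7) in CTRL and 0.78 ± 0.39 log2 CPM (SD, n = 5) in DPAn-6. By edgeR the log2 fold change was 1.20 (SE 0.26, 95% interval 0.65 to 1.74, adjusted p = 0.0308, exact permutation p = 0.00253). Summed over mice there were 90 counts in CTRL, or 0.742 CPM (exact Poisson 95% interval 0.596 to 0.912), and 170 in DPAn-6, or 1.74 CPM (1.49 to 2.02), intervals that cover counting error only. The direction was the same in 25 of 25 alternatives, but the adjusted p passed 0.05 in 15 of them. It did not when 1 of 6 mice was left out (CTRL replicate 4 or 6 or DPAn-6 replicate 1, 2, 4 or 5, adjusted p 0.0507 to 0.0918), in 14-month mice alone (1.31, adjusted p = 0.234), with Ttr as covariate (1.58, adjusted p = 0.116), or in the mice of the replicate numbers shared by both groups, with the number as a block (1.13, adjusted p = 0.144) or without it (1.11, adjusted p = 0.0859). An antisense gene, Gm20658, overlaps the Vipr2 locus with 0 shared exon bases and had 0 counts.

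**Figure D2:**
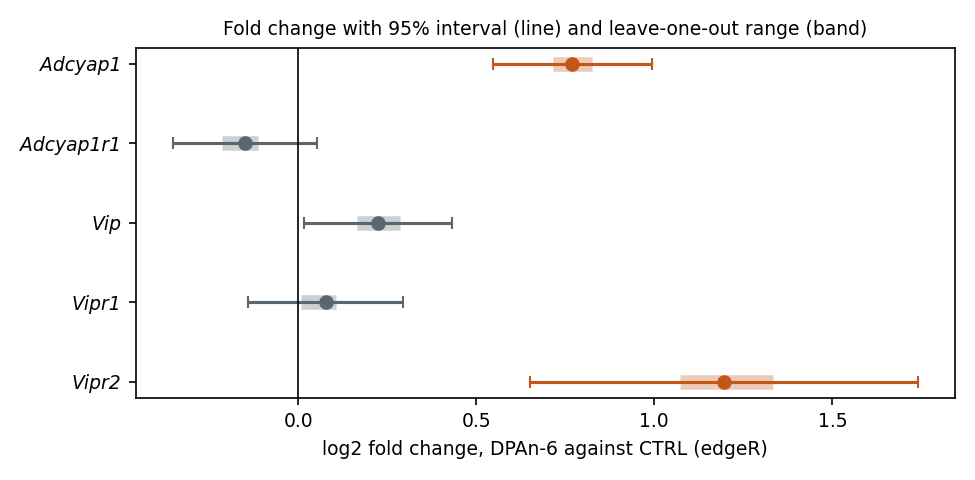
log2 fold change of DPAn-6 against CTRL from edgeR for each gene, with its 95% interval as a line, the range when each mouse is left out in turn as a band, and genes with an adjusted p below 0.05 in orange. The intervals of Adcyap1 (0.55 to 0.99) and Vipr2 (0.65 to 1.74) lie well above 0, that of Vip just above it, and those of Adcyap1r1 and Vipr1 include 0.

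The levels of the genes were ordered by CPM per kb of exon over all 12 mice. Adcyap1r1 was first, with 34.5 ± 4.35 CPM per kb (SD, n = 12), followed by Vip with 9.75 ± 1.38, Vipr1 with 6.20 ± 0.76, Adcyap1 with 3.28 ± 1.02 and Vipr2 with 0.259 ± 0.135. Adcyap1r1 was thus the most abundant receptor mRNA per length. Each gene was above the next in 12 of 12 mice, and only the ranges of Vipr1 (4.05 to 7.03) and Adcyap1 (2.05 to 5.03) overlapped. The geometric mean ratio of Adcyap1r1 to Vipr2 per length was 218 in CTRL (range 164 to 396) and 85.2 in DPAn-6 (70.0 to 123), without overlap. Most of this difference is that of Vipr2 (log2 fold change 1.20, against -0.15 for Adcyap1r1), so it is no separate result. The ratio of Adcyap1r1 to Vipr1 was 5.95 in CTRL and 5.07 in DPAn-6, with overlapping ranges.

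**Figure D3:**
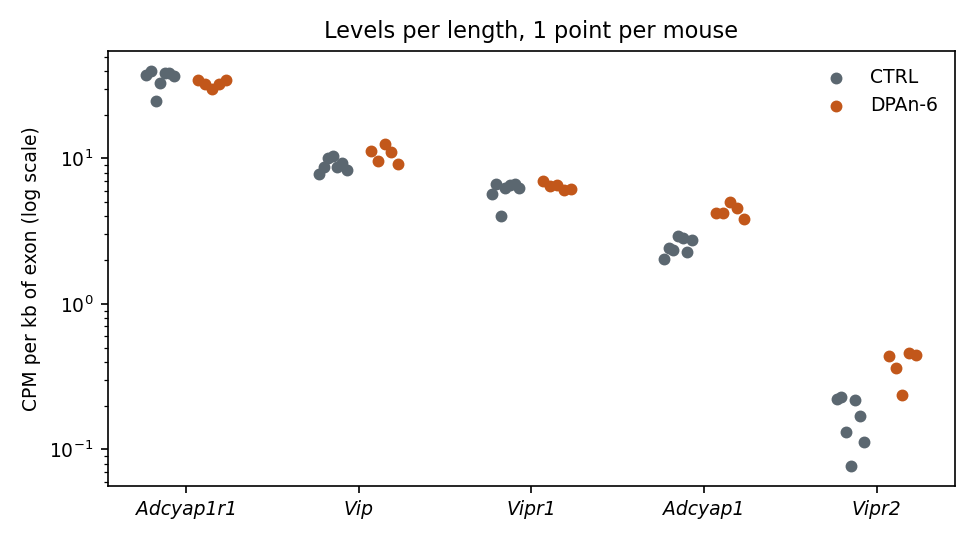
CPM per kb of exon on a log axis for each gene, 1 point per mouse, with CTRL in grey and DPAn-6 in orange. The genes keep 1 order in every mouse, from Adcyap1r1 (24.99 to 40.2) to Vipr2 (0.077 to 0.457), and the DPAn-6 points are shifted up in Adcyap1 and Vipr2.

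Within each age, Adcyap1 was higher in all DPAn-6 mice. At 12 months it had 7.72 and 10.3 CPM in CTRL and 19.0 and 17.3 CPM in DPAn-6, and at 14 months 8.63 to 11.1 CPM in CTRL and 14.4 to 15.9 CPM in DPAn-6. Vipr2 had 0.995 and 0.505 CPM in CTRL and 1.06 and 2.04 CPM in DPAn-6 at 12 months, and 0.344 to 1.02 against 1.63 to 2.0 CPM at 14 months. Neither gene's groups overlapped at either age, which follows from the lack of overlap over all 12 mice and adds nothing to it. Vip differed more at 12 months (26.5 and 28.3 against 42.7 and 37.7 CPM) than at 14 months (29.8 to 35.1 against 31.4 to 38.5 CPM), where the groups overlapped. The difference in effect, 14 minus 12 months, was -0.50 on the log2 scale for Vip (SE 0.18, edgeR adjusted p = 0.905, 0.0155 before adjustment). For the other 4 genes the unadjusted edgeR p of this difference was 0.105 to 0.996. By edgeR, DESeq2 and limma-voom, 0 of the 5 genes passed the adjusted test of a difference with age, beside 0.00637% of all genes by edgeR, and 1 of 5 had an unadjusted edgeR p below 0.05, beside 4.26%.

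**Figure D4:**
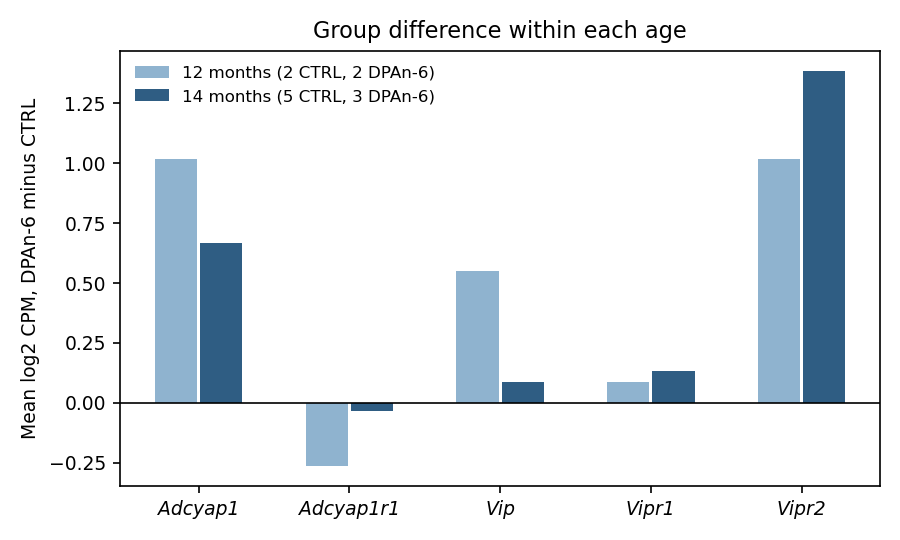
Mean log2 CPM of DPAn-6 minus that of CTRL for each gene at 12 months (light, 2 CTRL and 2 DPAn-6 mice) and 14 months (dark, 5 CTRL and 3 DPAn-6 mice), with no error drawn. Adcyap1 (1.02 and 0.67) and Vipr2 (1.02 and 1.39) are above 0 at both ages, and Vip is 0.55 at 12 and 0.09 at 14 months.

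To see whether mice high in one gene were high in another, pairs of genes were compared within the groups. After centring each group, 0 of 10 pairs of genes were correlated over the 12 mice at an adjusted p of 0.05 (permutation test of Pearson's r or of Spearman's rho, adjusted over 10 pairs). With Pearson's r, 2 pairs had an unadjusted p below 0.05. Of these, Adcyap1r1 and Vipr1 had r = 0.86 (permutation p = 0.0307, adjusted 0.115) and rho = 0.63 (permutation p = 0.0499, adjusted 0.144). For this pair r was 0.26 without CTRL replicate 3 alone and 0.15 without CTRL replicates 3 and 2, so the relation rested mainly on CTRL replicate 3. Adcyap1r1 and Vip had r = -0.56 (permutation p = 0.0348, adjusted 0.115) and rho = -0.58 (permutation p = 0.0292, adjusted 0.144), with r = -0.64 without CTRL replicates 3 and 2. Adcyap1r1 and Vipr2 had r = 0.53 (permutation p = 0.118, adjusted 0.196) and rho = 0.76 (permutation p = 0.0078, adjusted 0.078). Without CTRL replicate 3 alone, r for this pair was 0.87 (permutation p = 0.00281, adjusted 0.0281). The 2 genes that rose, Adcyap1 and Vipr2, had r = -0.61 (permutation p = 0.0576, adjusted 0.115) and rho = -0.43 (permutation p = 0.198, adjusted 0.33).

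The genes most like each member over the 12 mice, by the same centred r among 15683 genes, are given as a description. Those of Adcyap1 were Sertm1 (r = 0.92), Dusp4 (0.88), which encodes a MAP kinase phosphatase, Arl6ip6 (0.85), 1700001L05Rik (0.85) and Fam19a2 (0.84). Of these 5, Sertm1 also rose in DPAn-6 mice (log2 fold change 0.41, edgeR adjusted p = 0.0110), beside 0.408% of all genes tested. Those of Vip were 9930014A18Rik (0.88), Gm33680 (0.85) and Id2 (0.85). Those of Vipr2 were Shisal1 (0.91), Prob1 (0.88) and Gm30238 (0.86). Those of Adcyap1r1 were Rab26, Neurl1a and Grik5 (r 0.97 to 0.98), for which r was 0.91 to 0.93 without CTRL replicate 3. Those of Vipr1 were Nphp4, Pde4c and Gpr162 (r = 0.98 each), at 0.92 to 0.93 without that mouse. The highest r of 15683 genes over 12 mice can be high by chance, and none of these was tested.

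The other peptides and receptors of the secretin family were scarce in the cortex. Of 10 genes, 8 (Gcg, Sct, Ghrh, Gip, Sctr, Ghrhr, Glp1r and Gcgr) stayed under the filter, and Gip had no count in any mouse. The 2 tested were Gipr, the GIP receptor, with 1.79 to 2.86 CPM in CTRL and 2.71 to 3.48 CPM in DPAn-6 (log2 fold change 0.36, edgeR adjusted p = 0.234), and Glp2r (-0.21, adjusted p = 0.685). Neither passed the test.

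No gene of the signalling chain below the receptors passed the edgeR test over all 12 mice, though some did in part of the mice. Over all mice 0 of 11 G protein and adenylyl cyclase genes were called, with 4 at an unadjusted p below 0.05, and the smallest p-values were those of Adcy1, the calcium-stimulated cyclase (log2 fold change -0.32, adjusted p = 0.0895), and Adcy9 (-0.27, adjusted p = 0.211). DESeq2 called 1 of the 11 lower, limma-voom 0 and limma-voom with sample weights 3. By edgeR 3 were called lower without CTRL replicate 3 and 2 in the mice with low choroid plexus markers. Of 8 protein kinase A and Epac genes, edgeR, DESeq2 and limma-voom called 0 and 2 had an unadjusted edgeR p below 0.05, namely Rapgef4, which encodes Epac2 (-0.19, adjusted p = 0.278), and Prkar1a, a regulatory subunit (0.14, adjusted p = 0.315). Of 15 phosphodiesterases, which break down cyclic nucleotides, edgeR and limma-voom called 0 and DESeq2 called 1 higher and 3 lower, with 5 at an unadjusted edgeR p below 0.05. Among them the identifier matched to Pde2a, ENSMUSG00000110195, had 4.21 to 6.44 CPM in CTRL and 2.89 to 3.87 CPM in DPAn-6 (-0.53, edgeR adjusted p = 0.0699), without overlap. Its symbol came from GENCODE M21 and not from the annotation used for counting. Whether the counts under it cover the whole gene was not tested. Pde7b had a log2 fold change of 0.35 (adjusted p = 0.0859). Of 8 CREB family and coactivator genes, all 3 tools called 0 and 2 had an unadjusted edgeR p below 0.05, Crem (0.25, adjusted p = 0.212) and Ep300 (-0.21, adjusted p = 0.278). Without CTRL replicate 3, edgeR called 2 phosphodiesterases higher and 2 lower and 1 CREB family or coactivator gene higher, and in the mice with low choroid plexus markers it called 1 protein kinase A or Epac gene and 1 phosphodiesterase lower. The median log2 fold changes of these lists lay between -0.11 and 0.10, beside -0.0047 over all genes tested. Of all genes tested, 14.5% had an unadjusted edgeR p below 0.05. Calls over all genes, in either direction, were 696 by DESeq2, 224 by limma-voom and 1267 by limma-voom with sample weights. By edgeR they were 953 without CTRL replicate 3 and 541 in the mice with low choroid plexus markers. Whether the lists differ from all genes was not tested.

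The genes of peptide processing and of receptor control were not called either. Of 8 processing and breakdown genes, edgeR, DESeq2 and limma-voom called 0, with 1 at an unadjusted edgeR p below 0.05, the prohormone convertase Pcsk1 (log2 fold change 0.22, edgeR adjusted p = 0.261). Cpe, carboxypeptidase E, had -0.10 (adjusted p = 0.441). Of 9 receptor partners and desensitization genes, the same tools called 0, with 1 at an unadjusted edgeR p below 0.05, the receptor kinase Grk3 (-0.23, adjusted p = 0.176). Ramp2, which encodes a receptor activity-modifying protein, had -0.23 (adjusted p = 0.420). An unadjusted edgeR p below 0.05 stood in 14.5% of all genes tested.

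Among 17 genes known to respond to cyclic AMP or neuronal activity, 5 rose and 0 fell by edgeR, beside 0.408% of all genes tested that rose, and 15 had a log2 fold change above 0, beside 48.7% of all genes. The median log2 fold change of the list was 0.38. The list was chosen with earlier results of these data known, so these counts are no independent evidence of its direction. Scg2, which encodes secretogranin II, had 103 to 156 CPM in CTRL and 168 to 192 CPM in DPAn-6 (log2 fold change 0.47, edgeR adjusted p = 0.0214). Bdnf, brain-derived neurotrophic factor, had 17.7 to 27.8 CPM in CTRL and 27.9 to 36.1 CPM in DPAn-6 (0.56, adjusted p = 0.0276). Neither gene's groups overlapped, although the lowest DPAn-6 mouse in Bdnf was next to the highest CTRL mouse. Inhba, an activin subunit, had 3.67 to 6.85 CPM in CTRL and 6.34 to 9.19 CPM in DPAn-6 (0.70, adjusted p = 0.0299), with overlap. The other 2 were Nptx2, neuronal pentraxin 2 (0.67, adjusted p = 0.0134), and the neuropeptide precursor Vgf (0.45, adjusted p = 0.0412), which the study itself had picked on these samples and which are no independent evidence of the list's direction. In all, 8 of the 17 had an unadjusted edgeR p below 0.05 and a log2 fold change above 0. Over all genes tested, 14.5% had such a p in either direction. The immediate-early genes were not called. Of these, Fosb (0.44, adjusted p = 0.151), Egr1 (0.39, adjusted p = 0.321) and Nr4a3 (0.38, adjusted p = 0.309) were above the CTRL mean in 5 of 5 DPAn-6 mice. So were Junb (0.15) and Arc (0.11), with smaller log2 fold changes. Npas4 (0.15), Nr4a1 (0.06) and Nr4a2 (0.02) were above the CTRL mean in 3 of 5. Fos had 12.3 to 36.7 CPM in CTRL and 26.1 to 30.6 CPM in DPAn-6 (0.39, adjusted p = 0.431), and Per1 had a log2 fold change of 0.01. The list's count of rises was 8 in the mice with low choroid plexus markers, 8 without CTRL replicate 3, 1 with Ttr as covariate and 0 in 14-month mice alone. With the replicate number as a block it was 0, against 3 in the same mice without the block. It was 1 without any 1 of DPAn-6 replicates 1, 3, 4 and 5, 2 without CTRL replicate 1 or 6 or DPAn-6 replicate 2, and 3 without CTRL replicate 2, 4 or 5. Genes called in all, in either direction, were 541 in the mice with low choroid plexus markers and 17 with Ttr. They were 9 in 14-month mice, 69 under the block and 148 without it. Leaving out 1 mouse gave 64 to 953 genes called in all, with 953 without CTRL replicate 3. Nptx2 was called in 22 of 25 alternatives, Scg2 in 17, Inhba in 14 and Bdnf and Vgf in 12 each. Of 12 genes of the list with a RefSeq promoter, 5 (Nr4a3, Npas4, Per1, Scg2 and Dusp1) held TGACGTC, beside 3.16% of all genes searched. Of these 5, only Scg2 was called. As the list was made of genes known to respond to cyclic AMP or activity, its share is no finding about these mice. The rest of the 17, some of the called genes among them, had no promoter to search.

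**Figure D5:**
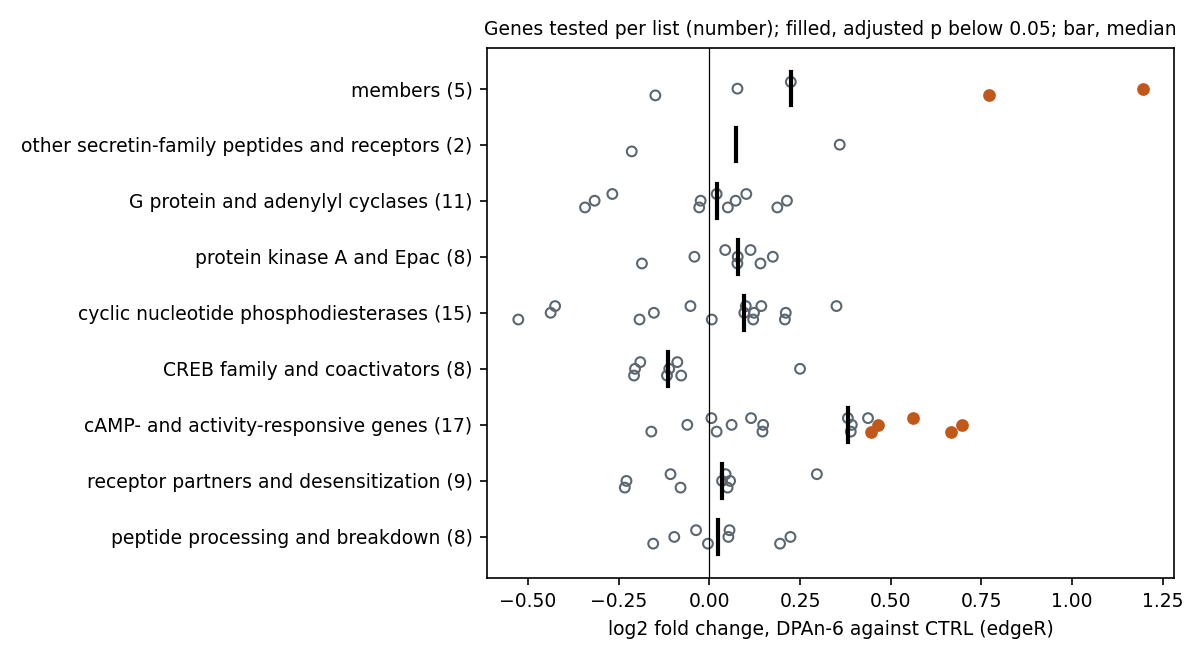
log2 fold change of DPAn-6 against CTRL (edgeR) for each gene tested in the set of 5 (members) and in 8 lists of the pathway, with the number tested in brackets, filled orange points for an adjusted p below 0.05 and a black bar for the list's median. Called genes stand in the set itself (2 of 5) and among the cAMP- and activity-responsive genes (5 of 17), whose median is 0.38. The genes and lists were chosen with earlier results of these data known.

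Markers of cell types were set beside these values. Of 10 markers of VIP and related interneurons, 1 rose, Crh, which encodes corticotropin-releasing hormone (2.69 to 4.21 CPM in CTRL and 4.65 to 7.34 CPM in DPAn-6, log2 fold change 0.68, edgeR adjusted p = 0.0302, called in 13 of 25 alternatives). Calb2, another marker of these cells, had a log2 fold change of -0.00072 and Htr3a of -0.05. Sncg (-0.57, edgeR adjusted p = 0.189) and Nr2f2 (-0.34, adjusted p = 0.409) were below the CTRL mean in 5 of 5 DPAn-6 mice without passing the test. In all, 5 of the 10 log2 fold changes were above 0 and 5 below, with a median of 0.05. The markers summed to 404 to 450 CPM in CTRL and 462 to 532 CPM in DPAn-6, without overlap, a sum led by Cck (156 to 233 and 241 to 303 CPM, 0.32, adjusted p = 0.0830), which excitatory neurons also express. Excitatory neuron markers (12 tested) and other inhibitory neuron markers (10 tested) had 0 calls by edgeR, DESeq2 and limma-voom and medians of 0.03 and 0.18, with 2 and 3 genes at an unadjusted edgeR p below 0.05. Of 6 microglia markers 1 fell, Csf1r (-0.50, adjusted p = 0.0282, called in 14 of 25 alternatives), and 6 of 6 log2 fold changes were below 0, with a median of -0.46 and 5 at an unadjusted edgeR p below 0.05. DESeq2 called 3 lower and limma-voom 1, and edgeR called 4 lower without CTRL replicate 3 and 4 in the mice with low choroid plexus markers. Their sum was 780 to 1161 CPM in CTRL and 590 to 800 CPM in DPAn-6. Striatal neuron markers summed to 181 to 529 CPM in CTRL and 192 to 405 CPM in DPAn-6, with 7 of 7 log2 fold changes above 0 and 0 of 7 called by the same 3 tools (1 at an unadjusted edgeR p below 0.05). Of 6 markers each of astrocytes, oligodendrocytes, endothelial cells and thalamic neurons, edgeR and limma-voom called 0, with 2, 4, 2 and 1 at an unadjusted edgeR p below 0.05, and DESeq2 called 1 oligodendrocyte marker higher and 1 thalamic marker lower. The 4 oligodendrocyte markers were higher in DPAn-6, with 5 of 6 log2 fold changes above 0 and a median of 0.27. The 2 astrocyte markers and the 1 thalamic marker were lower, and the endothelial ones went 1 each way. Of 5 choroid plexus markers tested, edgeR and limma-voom called 0 and DESeq2 called 4 lower, and 5 had an unadjusted edgeR p below 0.05, with a median log2 fold change of -2.71. Of all genes tested, edgeR called 0.408% higher and 1.14% lower, and 14.5% had an unadjusted edgeR p below 0.05. Over all genes DESeq2 called 696 and limma-voom 224. By edgeR 953 were called without CTRL replicate 3 and 541 in the mice with low choroid plexus markers. The part of these cell types in the rises of Adcyap1 and Vipr2 was not tested.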

How the data were processed

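RNA-Seq libraries of poly(A)-selected mRNA were made by the authors from the cortex of 12 mice, and reads were aligned with STAR (2.5.3a per the submitters' processing notes) to GRCm38 with Ensembl annotation. The authors deposited raw counts per gene, without normalization, and the strand setting of the counting is not given in the sources used here. CPM used the total count on genes, and log2 CPM a pseudocount of 0.5. Gene positions and exon lengths are from GENCODE M21 (50339 of 50563 identifiers matched). Groups and ages came from the sample labels.

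The main fit was edgeR's quasi-likelihood test (edgeR 4.0.16, R 4.3.3) with TMM factors, filterByExpr by group and no covariate, and Benjamini-Hochberg adjustment ran over all 15688 genes tested. The study's own method, limma-voom (limma 3.58.1), DESeq2 1.42.0, library totals, other filters (none, or at least 1 CPM in 5 mice), a covariate (age, Xist or Ttr), the 14-month mice alone, a replicate block and the omission of each mouse in turn were alternatives. Fits on the mice with under 100 CPM of choroid plexus markers and on the mice of the shared replicate numbers were chosen after seeing the data. Each single gene had an exact permutation test of log2 CPM (two-sided) beside it, and correlations were tested by 100000 resamples (Python 3.11.15, scipy 1.17.1). The edgeR fit was tested on simulated data. The genes and lists were chosen with earlier results of these data known. Named were the 5 genes, each pathway list's called genes or else its 2 smallest p-values, at most 2 per marker list with low defining genes, and the genes most like each member by centred correlation (5 for Adcyap1 and 3 for the others). Fos, Fosb, Junb, Egr1, Nr4a1, Nr4a2, Nr4a3, Arc, Npas4, Per1, Dusp1, Calb2, Htr3a, Sncg and Nr2f2 were named after their values were seen. Replicates were separate mice, and 0 pairs of libraries were identical.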

Additional observations from a re-analysis of the deposited data

Results flagged for a closer look

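Among the 7 CTRL mice, replicate 3 lay far below the other mice in Adcyap1r1, with 7.37 log2 CPM, and in Vipr1, with 4.55 log2 CPM. Chance alone marks about 1 in 20 groups in this way. The same library held 203 CPM of choroid plexus markers, less than CTRL replicates 2 and 5 (1676 and 1037 CPM), and had the lowest TMM factor of the 12 (0.961). Of the 12 it also had the highest sums of astrocyte (10326 CPM) and thalamic neuron markers (296 CPM). Its sums of G protein and adenylyl cyclase genes (3005 CPM) and of peptide processing and breakdown genes (2815 CPM) were the lowest. Without it, the log2 fold change of Adcyap1r1 was -0.21 (edgeR adjusted p = 0.0373) and that of Vipr1 was 0.01. Whether the tissue taken or the library accounts for its values was not tested.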

How the results depend on the processing

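The 5 genes kept their direction in all 25 alternatives each. Adcyap1 stayed called in 23 of 25, and not with Ttr as covariate (0.77, adjusted p = 0.0819) or in 14-month mice only (0.64, adjusted p = 0.150). Vipr2 stayed called in 15 of 25, and not with Ttr (1.58), in 14-month mice (1.31), in 6 of the fits without 1 mouse or in the 2 fits on mice of shared replicate numbers. Adcyap1r1 became called by limma-voom with sample weights (-0.21) and without CTRL replicate 3. With each mouse left out, log2 fold changes were 0.71 to 0.82 for Adcyap1, -0.21 to -0.11 for Adcyap1r1, 0.16 to 0.28 for Vip, 0.01 to 0.11 for Vipr1 and 1.07 to 1.33 for Vipr2. The number of genes called in all, 243, was 696 by DESeq2, 1267 by limma-voom with sample weights, 17 with Ttr, 9 in 14-month mice and 541 in mice with low choroid plexus markers. Leaving out 1 mouse gave 64 (without DPAn-6 replicate 3) to 953 (without CTRL replicate 3), and 0 to 1 correlated pairs of members. Beyond the smaller samples that some of these settings hold, the cause was not tested.

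Replicate numbers 1 to 5 occur in both groups, but same-numbered mice did not deviate together (r from -0.13 to 0.22) and 0 of 5 numbers matched best with themselves. With the replicate number as a block 69 genes were called, against 148 in the same 10 mice without it. Under the block Adcyap1 was called (0.77, adjusted p = 0.0409) and Vipr2 was not (1.13, adjusted p = 0.144), and in the same mice without the block Vipr2 had 1.11 (adjusted p = 0.0859). Of the cAMP- and activity-responsive genes 0 were called under the block and 3 without it.

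Depth limits Vipr2 most, at 6 to 53 counts per mouse. Sex is not given per mouse. With Xist as covariate, as a stand-in for sex, Adcyap1 (0.77, edgeR adjusted p = 0.00256) and Vipr2 (1.18, adjusted p = 0.0368) stayed called.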
